A study of Mus musculus with 24 samples.

Results

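The matrix metalloproteinases, their tissue inhibitors and a pair of related aggrecan-cleaving proteases were followed here as a group of 9 genes in the gastrocnemius muscle of mice, a calf muscle that lies away from the burned trunk. The members were found by gene symbol through the annotation of each Ensembl identifier, and they are 9 of the 55401 genes in the table of read counts. The mice were male C57BL6 animals that arrived at 4 weeks (young) or 10 weeks (adult), acclimated for 1 week and were then given a scald that covered 25% of their body surface or were sham-treated, so that they were 5 or 11 weeks old. Every mouse had isoflurane and buprenorphine, burned mice were also resuscitated with lactated Ringer's solution, and sham mice had neither burn nor resuscitation. Burn and resuscitation therefore cannot be told apart in these groups. Muscle was taken 24 h later from 3 mice in each of the 4 groups adult sham, adult burn, young sham and young burn, and poly-A RNA of each mouse gave 1 library.

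Matrix metalloproteinases are zinc enzymes that cut collagens, laminins and other proteins of the extracellular matrix, and most are made as inactive proenzymes. Mmp2 and Mmp9 are the gelatinases, and Mmp14 is a membrane-bound enzyme that cuts fibrillar collagen and activates the proenzyme of Mmp2 on the cell surface. TIMP proteins block the active site of these enzymes, and Timp2 also takes part in the activation of Mmp2 by bridging it to Mmp14. Timp3 is held in the matrix and blocks ADAM and ADAMTS proteases as well. In skeletal muscle this system acts on the basement membrane around fibres and on the connective tissue between them.

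Total counts ran from 4392605 to 5688512 per library. The library of young burn replicate 2 was left out of the values given first, because the study set 1 young burn animal aside as an outlier in a single heatmap. The study does not name that animal in words, and replicate 2 was taken from the column labels of that heatmap, which hold young burn replicates 1 and 3. Member results with this mouse included are given beside the others, since between the burned groups the calls of Mmp2, Mmp9 and Timp3 rest on this choice. All 6 muscle fibre markers were detected in every library. Levels are CPM, the counts relative to the library total after TMM scaling, and levels of different genes are compared as RPKM, which divides CPM by the exon length in kilobases. A gene was called where its adjusted p in edgeR's quasi-likelihood test was under 0.05 after Benjamini-Hochberg adjustment over all genes tested. Each mouse is a sample of a whole muscle, so fewer cells of a type and less RNA per cell cannot be told apart. No source used here gives the strand that was counted.

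The members spanned a wide range of levels per exon length, and the order was led in every group by Timp2 and Mmp2. In adult sham muscle, Timp2 stood at 57.9 ± 10.5 RPKM (SD, n = 3) and Mmp2 at 36.1 ± 6.61 RPKM (n = 3). Adamts1, a secreted protease that cuts the proteoglycans aggrecan and versican, followed at 11.8 ± 2.08 RPKM in adult sham. Timp3 came next at 7.66 ± 1.22 RPKM, then Timp4 at 5.61 ± 1.18 and Mmp14 at 5.49 ± 1.03 RPKM, and the last 2 lay within their spread. The mean of Timp3 lay above that of Timp4 by more than either SD, though their mice overlapped, at 6.62 to 9.01 and 4.72 to 6.94 RPKM. Timp1 at 2.35 ± 0.694 and Mmp9 at 1.49 ± 0.479 RPKM were lower, with ranges over the mice of 1.67 to 3.06 and 0.934 to 1.80 RPKM that overlapped. Adamts4, also an aggrecan-cleaving protease, was lowest at 0.120 ± 0.0691 RPKM.

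In young sham muscle the same genes stood at the top, with Timp2 at 60.6 ± 11.6 and Mmp2 at 43.1 ± 15.5 RPKM (n = 3), but Timp3 at 3.39 ± 1.04 RPKM lay below Mmp14 at 8.72 ± 1.06 RPKM. The length used for a gene affected this order. With the longest transcript in place of all exon bases, adult sham Mmp14 came to 10.1 RPKM and Timp3 to 13.2 RPKM, and Timp3 then stood above Adamts1 at 12.9 RPKM.

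**Figure D1:**
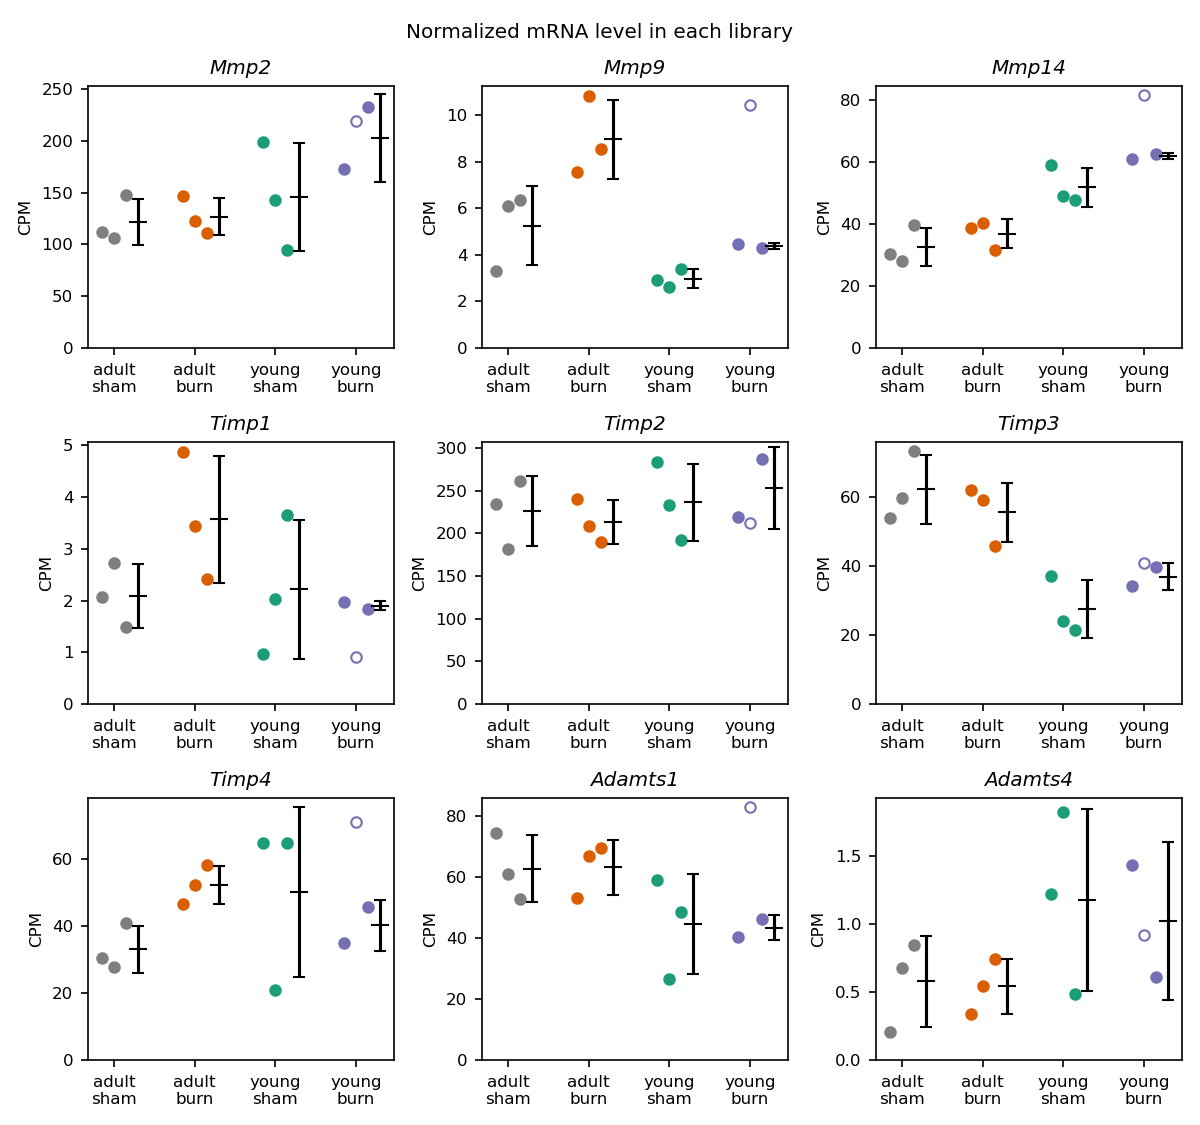
Normalized level of each member in CPM (linear axes from 0) for every library, with adult sham, adult burn, young sham and young burn from left to right. Filled points are the 11 libraries of the values given first, the open point is young burn replicate 2, and the dash with whiskers is the mean with SD over the filled points. Mmp14 is higher and Timp3 lower in young than in adult muscle, and the open point lies far from the other young burn mice for Mmp9 at 10.4 CPM.

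The comparison of young with adult muscle without burn asks which members differ between the ages in sham mice. The study's RNA quality report gives no integrity number for any sample. Its ratio of large to small ribosomal RNA was in no young sham mouse above that of the lowest adult sham mouse. RNA quality and age therefore cannot be told apart in this comparison, and the part of RNA quality was not tested. Of the 8 members tested, Mmp14 was higher in young sham and Timp3 was lower. These 2 calls stand against 11.8% of the 12651 genes tested that were called in either direction, with 5.27% called higher and 6.49% lower, and with all 12 libraries the same 2 members were called against 3.76% of 12408 genes. The median log2 fold change of the 8 members was 0.07, beside 0.00093 for all genes.

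Mmp14 (ENSMUSG00000000957.11, chromosome 14, 54431612 to 54445364, plus strand, GRCm38) is the main activator of the proenzyme of Mmp2. It had 30.4, 28.1 and 39.7 CPM in the adult sham mice and 59.2, 48.9 and 47.7 CPM in the young sham mice. Every young sham mouse lay above every adult sham mouse. Its log2 fold change was 0.66 (SE 0.14, edgeR adjusted p = 0.00897), and with all 12 libraries it was 0.67 (edgeR adjusted p = 0.0448).

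Timp3 (ENSMUSG00000020044.13, chromosome 10, 86300372 to 86349506, plus strand) had 53.9, 59.8 and 73.4 CPM in the adult sham mice and 37.3, 24.1 and 21.4 CPM in the young sham mice. All young sham mice lay below all adult sham mice. This gave a log2 fold change of -1.19 (SE 0.19, edgeR adjusted p = 0.00131), and -1.18 with all 12 libraries (edgeR adjusted p = 0.00788). Timp3 lies inside the gene Syn3 on the opposite strand and shares 1733 exon bases with it, and Syn3 had at most 4 counts in any library.

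The sequence before the start of these 2 genes is shown because they are the members that were called for age in sham and in burned mice, in opposite directions. Both are from RefSeq windows on GRCm38.p6, printed from 5′ to 3′ on the plus strand, with Mmp14 at chr14:54431348-54431597 and Timp3 at chr10:86300162-86300371. The Mmp14 stretch ends at the base before its RefSeq start, and the Timp3 stretch at the base before its Gencode start. Capitals mark GC boxes (GGGCGG on either strand).
Mmp14: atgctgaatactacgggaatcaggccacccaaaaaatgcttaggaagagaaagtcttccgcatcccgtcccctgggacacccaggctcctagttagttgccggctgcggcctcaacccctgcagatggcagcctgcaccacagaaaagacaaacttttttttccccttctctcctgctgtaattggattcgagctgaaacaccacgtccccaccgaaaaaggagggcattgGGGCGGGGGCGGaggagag
Timp3: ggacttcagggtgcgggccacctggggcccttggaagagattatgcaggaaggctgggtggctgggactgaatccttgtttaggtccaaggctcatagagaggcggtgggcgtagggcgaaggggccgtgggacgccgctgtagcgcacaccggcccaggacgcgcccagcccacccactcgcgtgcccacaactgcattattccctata
The Mmp14 window holds 2 GC boxes side by side, which begin 19 and 13 bases before the RefSeq start. The 250-base window of Timp3 holds 1 GC box, 15 bases before the RefSeq start, in the 40 bases that belong to its first Gencode exon and are not printed. GC made up 55.2% of the Mmp14 window and 65.6% of the 250-base Timp3 window.

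Windows were found for 6 of the 9 members, Timp1, Timp2, Timp4 and Adamts1 being the others. A GC box occurs in 32.7% of the 32851 promoter windows of 250 bases in the table, and 5 of the 6 members had at least 1, Timp4 being the exception. The TATA motif TATAAA, searched on both strands, was present in Adamts1 alone among the 6 and in 12.4% of all windows. The AP-1 motif TGANTCA, with N any base, was in none of the 6 windows and in 6.75% of all windows.

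The other members did not pass the test between the sham groups. Mmp9, a gelatinase that neutrophils and macrophages release (ENSMUSG00000017737.2, chromosome 2, 164940780 to 164955850), had 3.31, 6.11 and 6.36 CPM in adult sham and 2.92, 2.63 and 3.41 CPM in young sham. The highest young sham mouse lay just above the lowest adult sham mouse. From 12 to 30 counts per library, the log2 fold change came to -0.82 (SE 0.30, edgeR adjusted p = 0.0892), and to -1.07 without adult sham replicate 1 (edgeR adjusted p = 0.0388).

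Adamts1 (ENSMUSG00000022893.14, chromosome 16, 85793827 to 85803113) had 74.6, 60.9 and 52.8 CPM in adult sham and 59.0, 26.7 and 48.4 CPM in young sham. The groups overlapped, and the log2 fold change was -0.51 (SE 0.21, edgeR adjusted p = 0.134), or -0.77 without young sham replicate 1 (edgeR adjusted p = 0.0282). Timp4, the inhibitor best known from heart and skeletal muscle (ENSMUSG00000030317.8, chromosome 6, 115241892 to 115252205), was uneven among the young sham mice. It had 64.8 and 64.7 CPM in young sham replicates 1 and 3 but 20.8 CPM in replicate 2, below the 27.8 to 40.9 CPM of adult sham. This gave 0.58 on the log2 scale (SE 0.30, edgeR adjusted p = 0.228), and 0.96 (edgeR adjusted p = 0.00428) without young sham replicate 2. Timp4 lies inside Syn2 on the opposite strand and shares 90 exon bases with it, and Syn2 had at most 14 counts in any library.

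Timp2 (ENSMUSG00000017466.9, chromosome 11, 118301069 to 118355740) had 234, 181 and 262 CPM in adult sham and 283, 233 and 192 CPM in young sham. Its log2 fold change was 0.06, with a 95% interval from -0.29 to 0.40. Mmp2 (ENSMUSG00000031740.8, chromosome 8, 92827291 to 92853420) spread from 94.4 to 199 CPM in young sham and from 106 to 147 CPM in adult sham, and its log2 fold change was 0.25 (edgeR adjusted p = 0.483). Timp1 (ENSMUSG00000001131.11, chromosome X, 20870166 to 20874735), an inhibitor of most soluble metalloproteinases, had 4 to 15 counts per sham library. It lies inside Syn1 on the opposite strand without shared exon bases, and Syn1 had at most 3 counts. At that depth the 95% interval of Timp1 ran from -0.90 to 1.05 on the log2 scale. Adamts4 (ENSMUSG00000006403.13, chromosome 1, 171250421 to 171260637) had 1 to 9 counts per library in all 12 and was not tested.

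Between the burned groups, where age was compared 24 h after the scald, 4 of the 8 members were called, Mmp14 and Mmp2 higher and Mmp9 and Timp3 lower in young mice. The background was 20.7% of 12651 genes in either direction, 11.2% higher and 9.54% lower. The median over the members was -0.45, beside 0.0076 over all genes. With all 12 libraries, 1 member was called, Mmp14, against 10.8% of 12408 genes, and the median of the members was -0.10.

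Mmp14 had 38.7, 40.3 and 31.6 CPM in the adult burn mice and 61.2 and 62.7 CPM in young burn replicates 1 and 3, with 81.8 CPM in replicate 2. Every young burn mouse, replicate 2 included, lay above every adult burn mouse. This was a log2 fold change of 0.75 (SE 0.15, edgeR adjusted p = 0.00335), and 0.89 (edgeR adjusted p = 0.00637) with all 12 libraries. Mmp14 was called in both age comparisons in each of the 19 other fits that were run, 11 of them with 1 library left out.

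Mmp2, the gelatinase that Mmp14 activates, had 147, 123 and 111 CPM in adult burn and 173 and 233 CPM in young burn replicates 1 and 3. Replicate 2, at 219 CPM, lay between these, and no young burn mouse overlapped with the adult burn mice. It differed by 0.68 on the log2 scale (SE 0.23, edgeR adjusted p = 0.0494), and by 0.71 with all 12 libraries (edgeR adjusted p = 0.060). The call was also lost in 7 of the 11 fits with 1 library left out, namely adult burn replicates 2 and 3, adult sham replicates 1 and 2, young burn replicates 1 and 3 and young sham replicate 2, with an edgeR adjusted p of up to 0.346.

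Mmp9 had 7.55, 10.8 and 8.54 CPM in adult burn and 4.47 and 4.29 CPM in young burn replicates 1 and 3. Young burn replicate 2 had 10.4 CPM and lay within the adult burn range. Without this mouse the log2 fold change was -1.02 (SE 0.28, edgeR adjusted p = 0.0203), and with it -0.48 (edgeR adjusted p = 0.351). Leaving out adult burn replicate 2 or young burn replicate 1 or 3 also ended the call, with an edgeR adjusted p of 0.0692 to 0.110.

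Timp3 had 62.1, 59.1 and 45.9 CPM in adult burn and 34.2 and 39.8 CPM in young burn, with 41.0 CPM in replicate 2. The burned groups did not overlap, as the sham groups did not. Timp3 differed by -0.59 on the log2 scale (SE 0.20, edgeR adjusted p = 0.0491), and by -0.54 (edgeR adjusted p = 0.0866) with all 12 libraries. Its call was lost in 7 of the 11 fits with 1 library left out, namely adult burn, adult sham and young burn replicate 1, adult burn, adult sham and young sham replicate 2 and young burn replicate 3, with an edgeR adjusted p of up to 0.272.

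Timp1 had 1.97 and 1.84 CPM in the young burn mice against 4.86, 3.44 and 2.41 CPM in adult burn, and young burn replicate 2 had 0.915 CPM. The groups did not overlap, but the log2 fold change of -0.90 (SE 0.46) did not pass the test at these counts of 5 to 29 per library (edgeR adjusted p = 0.171). The values of Adamts1 were 53.0, 66.9 and 69.6 CPM in adult burn and 40.4 and 46.4 CPM in young burn, against 83.1 CPM in replicate 2. Its log2 fold change was -0.53 without that mouse (edgeR adjusted p = 0.120) and -0.16 with it. Timp2 at 0.25 and Timp4 at -0.37 (log2) had edgeR adjusted p of 0.326 and 0.422.

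**Figure D2:**
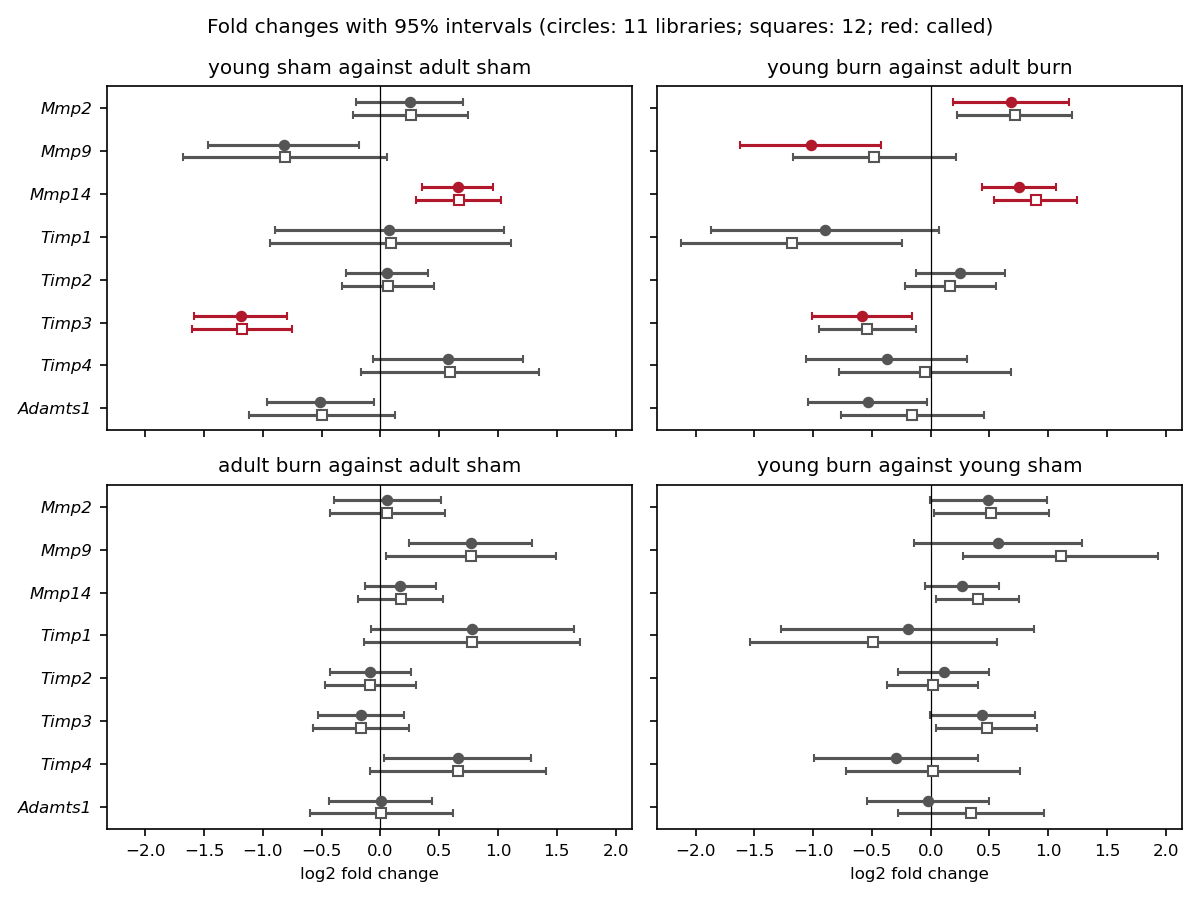
Log2 fold change (x axis) of the 8 tested members in the 4 comparisons of groups, with whiskers for the 95% interval from edgeR. Filled circles use 11 libraries and open squares all 12, and red marks an adjusted p under 0.05. Mmp14 is red on the right of 0 and Timp3 on the left in both panels of age, Timp3 without the red square between burned groups, and neither panel of burn holds a red symbol.

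The effect of the scald itself was asked within each age. In the ratio of large to small ribosomal RNA, no adult burn mouse was above the lowest adult sham mouse. RNA quality and burn therefore cannot be told apart in adults, which also limits the burn term and the interaction below. The part of RNA quality was not tested. In this ratio young burn overlapped with young sham and with adult burn. Among the 8 members, edgeR called 0 in adult burn against adult sham and 0 in young burn against young sham, where 0.909% and 0.664% of the 12651 genes were called in either direction. At an unadjusted p under 0.05 the counts were 2 and 0 members, beside 1731 and 2026 of the 12651 genes. DESeq2 also called 0 members in each, against 1.71% and 1.52% of all genes. With all 12 libraries the calls were again 0 in each, beside 0.00806% and 0.0645% of 12408 genes, with 1 and 4 members at an unadjusted p under 0.05. Such an unadjusted p was found for 853 and 2519 of these 12408 genes. The median of the members was 0.11 in adults and 0.19 in young mice.

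In adults, Mmp9 had the lowest unadjusted p. All 3 adult burn mice, at 7.55 to 10.8 CPM, lay above the 3 adult sham mice, at 3.31 to 6.36 CPM. Mmp9 differed by 0.77 on the log2 scale, with a 95% interval from 0.24 to 1.29 (edgeR adjusted p = 0.168). Timp4 had 46.6, 52.3 and 58.1 CPM in adult burn against 30.4, 27.8 and 40.9 CPM in adult sham. These groups did not overlap either, and differed by 0.66 on the log2 scale with an interval from 0.03 to 1.28 (edgeR adjusted p = 0.337). Timp1 had 29, 19 and 13 counts in adult burn and 10, 12 and 7 in adult sham, which was 0.78 on the log2 scale (SE 0.41, edgeR adjusted p = 0.415). The remaining 5 members had 95% intervals in adults that included 0 and reached at most 0.53 from it, as for Timp3, at -0.17 with an interval from -0.53 to 0.20.

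In young mice, Mmp9 had 4.47 and 4.29 CPM after burn against 2.63 to 3.41 CPM in sham. These values did not overlap, and the log2 fold change was 0.57 (SE 0.34, edgeR adjusted p = 0.428). With young burn replicate 2 it was 1.10 (SE 0.39, edgeR adjusted p = 0.151). Mmp2, at 0.49 (log2, edgeR adjusted p = 0.319), and Timp3, at 0.44 (edgeR adjusted p = 0.321), had intervals from -0.0064 to 0.99 and from -0.01 to 0.89. Mmp14 had a log2 fold change of 0.27, with an interval from -0.05 to 0.58, and Timp2 one of 0.11, with an interval from -0.27 to 0.49. Timp1, Timp4 and Adamts1 had log2 fold changes of -0.20, -0.29 and -0.02, and Timp4 and Adamts1 changed sign when replicate 2 was included, to 0.02 and 0.35.

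In the model with age and burn as terms, 0 of the 8 members were called for burn, against 2.15% of all genes, or 0.717% with all 12 libraries. At an unadjusted p under 0.05 this model had 2101 of the 12651 genes. Mmp9 was the member with an unadjusted p under 0.05, with a log2 fold change of 0.70 (SE 0.20, unadjusted p = 0.00259, edgeR adjusted p = 0.0805). With all 12 libraries it was 0.91 (edgeR adjusted p = 0.095), and DESeq2 called 0 of the 8 with 11 libraries. DESeq2 with all 12 libraries, a fit added after the data had been seen, called Mmp9 at 0.93 (DESeq2 adjusted p = 0.0334). All 5 burned mice of this model had more Mmp9 CPM than every sham mouse of their age, and young burn replicate 2 did as well.

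Whether burn acted differently in young and adult mice was tested as the interaction of age and burn. edgeR and DESeq2 each called 0 of the 8 members, against 0.0949% of all genes in edgeR (0% with all 12 libraries) and 0.419% in DESeq2. An unadjusted p under 0.05 was reached by 1410 of 12651 genes in edgeR and 887 in DESeq2, and by 2 and 1 members. In edgeR these were Timp3, at 0.60 (SE 0.27, unadjusted p = 0.0416, edgeR adjusted p = 0.431), and Timp4, at -0.95 (SE 0.44, unadjusted p = 0.047, edgeR adjusted p = 0.443). With all 12 libraries the interaction of Timp4 was -0.64 (edgeR adjusted p = 0.785). The age difference of Timp3 was thus -1.19 in sham and -0.59 in burned mice without a call on the difference of these.

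The ratio of a protease to its inhibitor within a library does not depend on the scaling of that library, and it is given as a description with no test. Mmp14 to Timp2, as a ratio of RPKM, was 0.0951 ± 0.00891 in adult sham (n = 3), 0.113 ± 0.0112 in adult burn (n = 3) and 0.145 ± 0.0145 in young sham (n = 3). In young burn replicates 1 and 3 it was 0.183 and 0.143. Adult mice ranged from 0.0849 to 0.126 and young mice, without young burn replicate 2, from 0.137 to 0.183, so the ages did not overlap. Young burn replicate 2 had the highest ratio, 0.253.

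Mmp2 to Timp2 was 0.626 ± 0.0664 in adult sham and 0.687 ± 0.0161 in adult burn (n = 3 each), 0.696 ± 0.122 in young sham (n = 3), and 0.914 and 0.938 in the 2 young burn mice. The young burn mice stood above the 0.811 of the highest young sham mouse, as did replicate 2 at 1.19. Mmp9 to Timp1 rested on few counts, ranged from 0.234 to 1.08 over the 11 libraries, and overlapped between all groups, while young burn replicate 2 had 2.86 from 57 counts of Mmp9 and 5 of Timp1. Adamts4 to Timp3 was 0.0065 to 0.0274 in adults and 0.0260 to 0.128 in young mice, again from at most 9 counts of Adamts4.

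**Figure D3:**
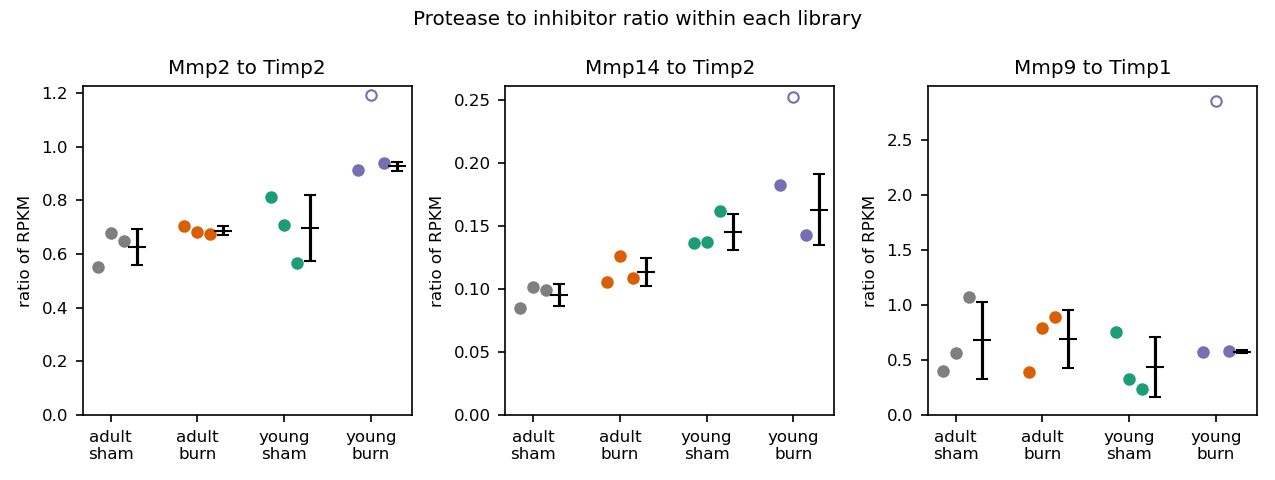
Ratio of the RPKM of a protease to that of its inhibitor within each library (linear axes from 0), for Mmp2 to Timp2, Mmp14 to Timp2 and Mmp9 to Timp1. Filled points are the 11 libraries of the values given first, the open point is young burn replicate 2, and the dash with whiskers is the mean with SD over the filled points. Mmp14 to Timp2 is at most 0.126 in the adult mice and at least 0.137 in the young mice.

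The wider protease family was read from lists of the remaining Mmp, Adamts, ADAMTS-like and ADAM genes, of activators and other inhibitors, and of matrix substrates. In young against adult sham, 5 of 12 tested Adamts genes and 6 of 13 matrix substrates were called higher and 0 lower, with median log2 fold changes of 0.76 and 0.55. Between the burned groups, 9 of 12 Adamts genes and 9 of 13 substrates were called higher and 0 lower, with medians of 1.27 and 1.11. With all 12 libraries these counts were 3 of 12 and 5 of 13 in sham and 7 of 12 and 8 of 13 after burn. The tested Adamts genes include Adamts7, Adamts8 and Adamts16, which passed the filter on low counts through the young mice. These could hardly have been called lower. Adamts16 had at most 1.63 CPM in adult burn and at most 2.76 CPM in adult sham, where its mean was 1.64 CPM. The shares called higher over all genes, 5.27% in sham and 11.2% after burn with 11 libraries, are the background of these counts and of those of the smaller lists.

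Among the Adamts genes between the burned groups, Adamts7, Adamts12 and Adamts8 had the largest changes. Adamts12 went from 6.25 ± 0.833 CPM in adult burn (n = 3) to 23.3 and 28.2 CPM in the young burn mice, with a log2 fold change of 2.04 (edgeR adjusted p = 0.000581). Adamts7 and Adamts8, at 2.21 and 1.96 (log2), had means of 0.812 and 0.884 CPM in adult burn. Adult mice of either group had at most 1.86 CPM of Adamts7 and 1.81 CPM of Adamts8. Both genes therefore passed the filter on low counts through the young mice. With lower values in young mice they would not have been tested, so the direction of their changes cannot be read apart from the filter. In sham, the called Adamts genes with the largest changes were Adamts12 at 1.29, Adamts20 at 0.95 and Adamts2, a procollagen N-propeptidase, at 0.80 (log2). Adamts1 was thus negative in both age comparisons, at -0.51 and -0.53 without a call, where the median of the other tested Adamts genes was positive.

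The substrates with the largest changes were the fibrillar collagen chains Col1a1, Col1a2 and Col3a1. In young against adult sham their log2 fold changes were 2.21, 1.92 and 1.73, and between the burned groups they were 2.22, 1.90 and 2.42. Col1a1 stood at 375 ± 112 CPM in adult sham and 1747 ± 322 CPM in young sham (n = 3 each).

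Of the Mmp genes outside the members, 0 of the 6 tested were called by edgeR or DESeq2 in each of the 6 comparisons, with between 0 and 3 of them at an unadjusted p under 0.05 in edgeR. Over these comparisons, 1410 to 4487 of the 12651 genes had such an unadjusted p. The 6 were Mmp3, Mmp11, Mmp15, Mmp19, Mmp23 and Mmp28, and the other 14 of the 20 listed Mmp genes did not pass the filter on low counts. Of 7 ADAM proteases, Adam10 was called higher in young sham at 0.41, and Adam10 at 0.52 and Adam17 at 0.50 were called higher in young burn (log2, against adults). These are sheddases that release membrane proteins, and Timp3 is a known inhibitor of Adam17. The call of Adam10 in young sham was lost with all 12 libraries (edgeR adjusted p = 0.0778), and the call of Adam17 in young burn was lost in DESeq2 (DESeq2 adjusted p = 0.065). Of 5 ADAMTS-like genes, which lack the protease domain, Adamtsl2 at 1.32 and Adamtsl4 at 0.72 were called higher in young burn and 0 in young sham, where 1 had an unadjusted p under 0.05 in edgeR and DESeq2 called 0. Adamtsl4 lost its call with all 12 libraries (edgeR adjusted p = 0.302). Of 10 activators and other inhibitors, the plasminogen activator Plat at 0.65 was called higher and the proprotein convertase Furin at -0.55 lower in young burn, a share no higher than the 20.7% of all genes called there, and Furin was not called with all 12 libraries (edgeR adjusted p = 0.179). None of the 10 was called in young sham, where 4 had an unadjusted p under 0.05 in edgeR and DESeq2 called 0. In young against adult sham, 3517 of the 12651 genes had an unadjusted p under 0.05 in edgeR.

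For burn itself, edgeR called 0 genes of these 6 lists within either age or in the interaction. At an unadjusted p under 0.05, matrix substrates had 2 of 13 genes in adults and 7 of 13 in young mice, beside 1731 and 2026 of all 12651 genes. DESeq2 called 2 of 13 substrates higher in young mice and 1 of 13 in the interaction. The shares of all genes that DESeq2 called higher there were 0.901% and 0.229%. In the model with age and burn as terms, the small proteoglycan Fmod was called lower after burn at -0.93 (log2, edgeR adjusted p = 0.0479). This call was lost in DESeq2 (DESeq2 adjusted p = 0.0729) and with all 12 libraries (edgeR adjusted p = 0.0622), where 0 of 13 substrates were called, 5 of them at an unadjusted p under 0.05. With all 12 libraries, 2424 of the 12408 genes had such an unadjusted p in this model. Fmod is also made by tendon cells, and 5 of 7 tendon markers (4 with all 12 libraries) were called lower in the same model, led by Chad at -1.77, Kera at -1.72 and Tnmd at -1.70. The share of all genes called lower in this model was 0.688%, or 0.218% with all 12 libraries. The part of tendon in these values was not tested.

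**Figure D4:**
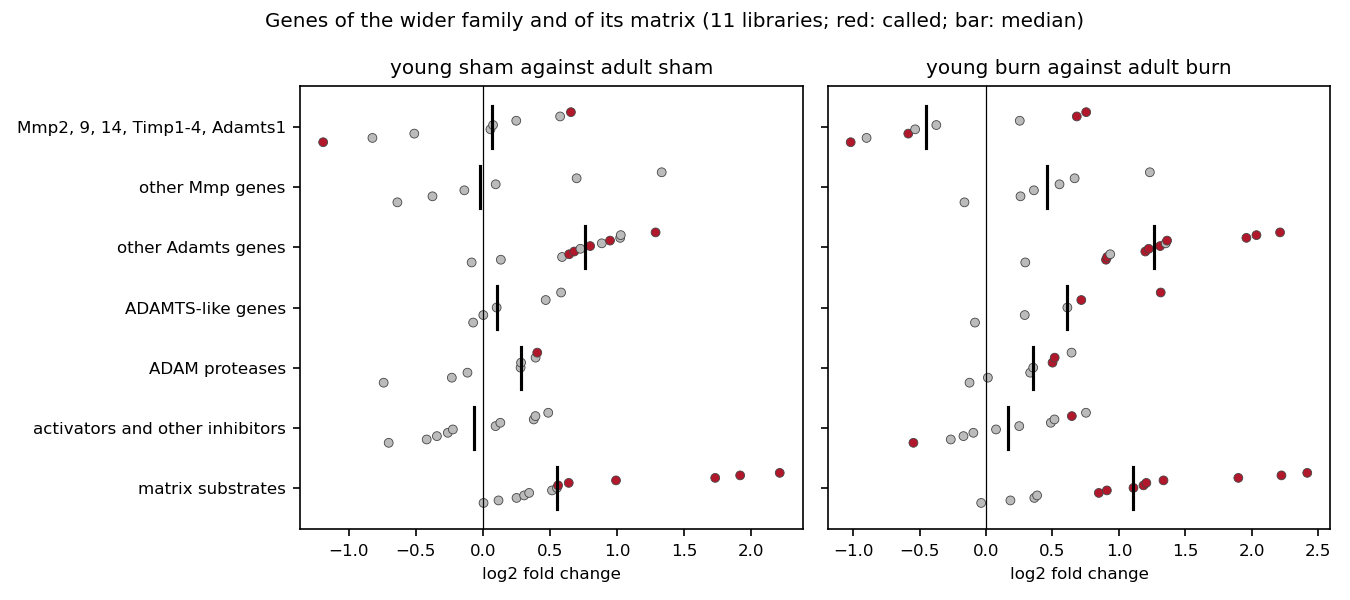
Log2 fold change (x axis) of each tested gene in 7 gene lists, with the sham ages compared (left) and with the burned ages compared (right), with 11 libraries. Points are genes, red marks an edgeR adjusted p under 0.05 and the black bar is the median of the list. Adamts genes and matrix substrates lie mostly to the right of 0, with medians of 1.27 and 1.11 between the burned groups, while the 8 members lie on both sides.

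The genes most like each called member were sought among 11877 tested protein-coding genes, by the root mean square difference of centred log2 CPM over the 11 libraries. For Mmp14, these were Chpf, Nid1 and Lamb1, at differences of 0.13, 0.13 and 0.14, where the SD of Mmp14 itself was 0.41. For Mmp2, these were Pdgfra, Scara5 and Rnase4, at 0.13, 0.16 and 0.16, beside an SD of 0.40. Nid1 and Lamb1 encode basement membrane proteins, and Pdgfra is a growth factor receptor of fibroblast-like cells in muscle. For Timp3, these were Ttc7b, Cacna1s and Pcyt1a, at 0.15, 0.18 and 0.18, beside an SD of 0.57, and Cacna1s encodes the voltage sensor of the muscle fibre. For Mmp9, these were Tpx2, Cdkal1 and Sqstm1, at 0.19, 0.24 and 0.25, beside an SD of 0.63. The 11 libraries are those of the tests above, so this likeness holds the same differences between groups.

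Markers of other cells moved along with some of these comparisons. In young burn against adult burn, where Mmp2 and Mmp14 were higher, 4 of 7 fibroblast, 6 of 9 macrophage, 2 of 5 endothelial and 3 of 5 pericyte and smooth muscle markers were called higher and 0 lower. These counts were 2, 6, 1 and 2 with all 12 libraries. Over all genes, 11.2% were called higher and 9.54% lower, or 5.98% and 4.84% with all 12 libraries. Of the 6 muscle fibre markers, 1 was called higher and 2 lower in this comparison, or 0 and 1 with all 12 libraries. The summed fibroblast markers ran from 3726 to 4598 CPM in the 2 young burn mice and from 3742 to 4634 CPM in adult burn, which overlapped. The summed pericyte and smooth muscle markers ran from 1124 to 1177 CPM in young burn and from 677 to 704 CPM in adult burn, which did not. Each of these sums mainly follows 1 gene. Gsn had 6898 to 22306 counts per library, against at most 2234 for any other fibroblast marker. Rgs5 had 2951 to 5419 counts, against at most 442 for any other pericyte and smooth muscle marker. In young against adult sham, 2 of 7 fibroblast and 0 of 9 macrophage markers were called by edgeR, and with all 12 libraries 0 of both, with 3 fibroblast and 0 macrophage markers at an unadjusted p under 0.05. Called higher there were also 2 of 4 satellite cell, 2 of 7 tendon and 1 of 5 adipocyte markers. Of 5 pericyte and smooth muscle markers 1 was called higher and 1 lower, and of 5 endothelial markers 0 were called. These stand against 5.27% of all genes called higher and 6.49% lower. Of the 6 muscle fibre markers, 1 was called higher in young sham, and their sum ran from 97130 to 107578 CPM in adult sham and from 114113 to 162765 CPM in young sham, without overlap. The part of these cells in the values of Mmp2, Mmp14 and Timp3 was not tested.

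Beside the values of Mmp9 after burn stood those of macrophage and neutrophil markers. The summed macrophage markers ran from 320 to 388 CPM in adult sham and 392 to 526 CPM in adult burn, and from 313 to 431 CPM in young sham and 540 to 924 CPM in the 2 young burn mice. The 9 markers were all detected in every library. Of 10 neutrophil markers, 2 passed the filter on low counts, S100a8 and S100a9, and both were called higher in the model with age and burn, at 1.78 and 2.07 (log2). The share of all genes called higher in this model was 1.46%, or 0.5% with all 12 libraries. All 10 markers together came to at most 5.99 CPM in a sham mouse, so these 2 genes could hardly have been called lower after burn. Only S100a9 was called of the pair with all 12 libraries, and S100a8 had 2.59 on the log2 scale (edgeR adjusted p = 0.066). The summed neutrophil markers were 2.33 to 5.99 CPM in adult sham, 6.87 to 15.4 CPM in adult burn, 2.02 to 4.14 CPM in young sham and 9.60 to 10.4 CPM in young burn. The defining markers Ly6g and Ltf were at 0 in all 12 libraries, and Ngp, Camp, Cxcr2, Retnlg and Mmp8 had at most 3 counts and Csf3r at most 11. The part of these cells in the Mmp9 values was not tested.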

How the data were processed

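Gastrocnemius poly-A RNA of 12 mice was used, and the small RNA libraries of the same mice were not used here. The authors used STAR on GRCm38 with its GeneCounts option and the Gencode M25 genes, and the deposited values are raw counts. The submitters' processing notes name STAR 2.7.5c. Gene positions and exon lengths were taken from Gencode M21 by identifier, which matched 55141 of 55401 genes.

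Counts were scaled by TMM and filtered with filterByExpr (minimum count 10, minimum total 15), which kept 12651 genes in 11 libraries and 12408 in 12. A mean per group was fitted in edgeR 4.0.16 (R 4.3.3), with two-sided quasi-likelihood tests and Benjamini-Hochberg adjustment over all genes tested, and intervals are at 95%. DESeq2 1.42.0 was an alternative. On simulated counts for 12651 genes, young sham against adult sham recovered 66 of 100 genes changed 2-fold and 93 of 100 changed 3-fold, with 12 false calls, young burn against adult burn 68 and 89 with 6, and the interaction 46 and 78 with 5. False calls were 11 to 13 in the other 3 comparisons. The labels number the mice but give no litter, so p-values measure the spread between these mice.

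The members and lists were chosen with earlier results of these data known. All 9 members are named. From other lists, counts are given with the called genes of largest change, up to 3 per list, and each called member has its 3 nearest genes. Genes named outside this rule (the untested or uncalled markers, and the 6 remaining Mmp genes) were chosen after their values were seen.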

Additional observations from a re-analysis of the deposited data

Results flagged for a closer look

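Young burn replicate 2, the mouse left out of the values given first, lay above every young sham mouse for 6 of the 9 members. It had 218.6 CPM of Mmp2 against at most 199 in young sham, 10.4 CPM of Mmp9 against at most 3.41, and 81.8 CPM of Mmp14 against at most 59.2. It also had 41.0 CPM of Timp3, 71.2 CPM of Timp4 and 83.1 CPM of Adamts1, where the highest young sham mice had 37.3, 64.8 and 59.0 CPM. For Mmp9, Mmp14, Timp3, Timp4 and Adamts1 it was also above both other young burn mice. Its summed neutrophil markers came to 27.5 CPM, with 126 counts of S100a8, and its summed macrophage markers to 673 CPM.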

How the results depend on the processing

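The calls of Mmp14 and Timp3 between the sham groups and of Mmp14 between the burned groups were kept in all 19 alternatives, with adjusted p of at most 0.0448, 0.0102 and 0.0338. Between the burned groups, Mmp2 was called in 9, Mmp9 in 14 and Timp3 in 8 of 19, and the 4 members called there became 1 with all 12 libraries, 2 with library size alone and 2 in DESeq2 with all 12 libraries. Over all genes, these fits called 10.8%, 16.2% and 11.3% between the burned groups, against 20.7% in the values given first. With 1 library left out the count was 1 to 4 there, 2 to 3 between the sham groups (the third being Mmp9, Adamts1 or Timp4) and 0 in the other comparisons. Between the burned groups it was 1 without adult burn replicate 2, young burn replicate 1 or young burn replicate 3, beside 14%, 7.35% and 7.99% of all genes. It was 2 without adult sham replicate 1 or 2, beside 19.2% and 19.4%. Adamts1, uncalled in the values given first, was called between the burned groups without young sham replicate 2 (edgeR adjusted p = 0.0339) and with the 2 groups compared alone (0.0167, 5 members called against 21.4% of all genes).

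Mice of the same number had correlations of deviations from their group mean of -0.17 to 0.13, median -0.05, over 15 pairs, against a median of 0.02 for other pairs. Deviations within a group cancel, and those of the 2 young burn libraries mirror each other. The same-number and other pairs therefore offset one another, and these values cannot decide whether the mice were paired. No label pairs the mice, so the numbers were not taken to pair them. With the replicate block, 2 members were called between the burned groups, Mmp14 and Mmp9, against 14.5% of all genes, and the block changed no other count of members called.

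Between the sham groups, library size alone and no filter on low counts each called 4 members, against 14.1% and 6.73% of all genes. Without the filter, 1 member was called in each of the other comparisons except that between the burned groups, where 6 were. These were Timp4 in adults (edgeR adjusted p = 0.000119) and in the interaction (0.000638), Mmp2 in young mice (0.0176) and Mmp9 for the burn term (0.0286), to which 1 call in DESeq2 with all 12 libraries is added. Of the 28070 genes without the filter, 2% were called in adults, 2.11% in young mice and 0.859% in the interaction. The burn term had 2.85% and the burned groups 10.1%. DESeq2 with all 12 libraries called 2.93% of genes for the burn term. The cause of the added calls was not tested. Library size alone moved the median of all genes to -0.13 between the sham groups, 0.16 in young burn against young sham and 0.18 in the interaction. The called values kept their sign throughout. Of 895 member values over all alternatives and comparisons, 62 changed sign, each without a call before and after. At 1 to 30 counts per sham library, Mmp9, Timp1 and Adamts4 are limited by depth.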
